A study of Homo sapiens with 9 samples.

Results

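Described here are 4 scarce transcripts of HEK293T cells that were higher with the kinase PLK2 than with an empty vector: NPR3, FILIP1L, SPOCK1 and LDHAL6B. They are 4 of the 17083 genes listed and of the 12924 tested, and they were chosen by symbol, on their higher counts in PLK2 than in Vector libraries in earlier results of the same data. The values of that contrast are therefore given below as a description with no test. HEK293T cells derive from human embryonic kidney and express the large T antigen of SV40. Polyadenylated RNA was sequenced from 9 cultures, all of the parental genotype: 3 overexpressed PLK2 with a FLAG tag, 3 overexpressed PLK2(D223N) with a FLAG tag, in which an aspartate of the kinase domain is replaced by asparagine, and 3 carried the FLAG vector alone (Vector). The series title is about PLK2 in microglial activation, and these kidney-derived cells are not microglia. Kinase activity was not measured here.

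The 4 genes encode unrelated proteins. NPR3 encodes natriuretic peptide receptor C, a receptor with no guanylyl cyclase domain that binds natriuretic peptides and removes them by internalisation, and can couple to inhibitory G proteins. FILIP1L encodes a coiled-coil protein related to the filamin-binding protein FILIP1. SPOCK1 encodes testican-1, a secreted proteoglycan of the SPARC family. LDHAL6B is a single-exon gene of the lactate dehydrogenase family, known in human mainly from testis. PLK2 itself is a polo-like kinase that acts in centriole duplication and at synapses.

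PLK2 RNA followed the labels. It was at 23744 ± 2384 CPM in PLK2, 12358 ± 1650 CPM in PLK2(D223N) and 3.42 ± 0.64 CPM in Vector libraries (CPM, counts scaled to the same library total, SD, n = 3 each), so the intact form was also the more abundant RNA. Library totals ran from 14288165 to 16510186 estimated counts, both in Vector libraries. Vector replicate 1 stood apart, with a chi-square per gene of 17.8 and 10.8 against Vector replicates 2 and 3, where other pairs within a group ranged from 1.63 to 2.81. Of the 7 genes of an epithelial list, which includes CDH2 and VIM, not markers of epithelia alone, 6 were listed. The keratins KRT8 and KRT18 were detected in all groups (19.6, 19.3 and 19.6 CPM, and 43.2, 42.2 and 43.7 CPM, in PLK2, PLK2(D223N) and Vector libraries). Among other genes of the epithelial list, EPCAM was at 1.90, 1.79 and 1.97 CPM and CDH1 at 3.42, 3.56 and 3.61 CPM. CDH2 was at 15.6, 16.3 and 16.6 CPM and VIM, the highest of that list, at 512, 506 and 524 CPM, in the same order. Of 5 endothelial markers the summed level was 0.748 to 0.992 CPM in PLK2, 0.678 to 0.935 in PLK2(D223N) and 0.485 to 0.808 in Vector libraries. Of 6 fibroblast markers, 5 were listed, with sums of 12.8 to 14.7, 13.8 to 15.05 and 13.5 to 13.98 CPM in the same groups, carried by COL1A1 and COL3A1, while COL1A2 had 0, 0 and 1 counts in all. The 3 listed of 6 immune markers summed to 1.61 to 2.49, 1.50 to 1.91 and 1.80 to 1.96 CPM. Of the endothelial genes, KDR had 27, 20 and 17 counts and CDH5 had 0, 2 and 0, in the same groups. The part of these markers in the results was not tested. Bulk RNA cannot tell fewer expressing cells from less RNA per cell.

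NPR3 (NCBI gene 4883) lies on chromosome 5, from 32689070 to 32791724 on the plus strand of GRCh38 in GENCODE release 29, and SPOCK1 (6695) on the same chromosome from 136975298 to 137598379 on the minus strand. FILIP1L (11259) lies on chromosome 3 from 99830141 to 100114513 on the minus strand, wholly within CMSS1, a gene of the opposite strand. LDHAL6B (92483) lies on chromosome 15 from 59206823 to 59208515 on the plus strand, in MYO1E, also a gene of the opposite strand. No exon base of FILIP1L (0 of 5903) or LDHAL6B (0 of 1693) is also an exon base of its host. The strand setting of the counting is not given in the sources used here, so reads from the introns of a host could not be told apart from reads of its guest by strand. As gene counts, CMSS1 was at 69.1, 64.9 and 65.6 CPM and MYO1E at 46.0, 45.4 and 46.3 CPM in PLK2, PLK2(D223N) and Vector libraries. The part of host reads in the FILIP1L and LDHAL6B counts was not tested.

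Shared sequence touched LDHAL6B most. Of its 1663 distinct stretches of 31 bases, 214 (12.9%) also occur in transcripts of other genes, mainly the pseudogenes LDHAL6FP (112) and LDHAL6CP (108), and 6 occur in LDHAL6A. The share was 2.19% for FILIP1L and 0.0304% for NPR3, and none of the 6239 stretches of SPOCK1 was shared. LDHAL6B counts could thus include reads of its pseudogenes.

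Because the transcripts were chosen for a shared direction, the windows around the starts of NPR3, FILIP1L and LDHAL6B (250 bases before to 50 after, RefSeq, GRCh38.p14) were searched on both strands for 6 motifs. SPOCK1 was not searched here. There were 2 starts each for NPR3 and FILIP1L and 1 for LDHAL6B. Which start was used cannot be read from gene counts. The more CpG-rich start of each gene is shown, in its own direction of transcription, with matches in capitals. For FILIP1L it is chr3:99876124-99876423 (minus strand), for NPR3 chr5:32710399-32710698 (plus strand) and for LDHAL6B chr15:59206593-59206892 (plus strand).
FILIP1L: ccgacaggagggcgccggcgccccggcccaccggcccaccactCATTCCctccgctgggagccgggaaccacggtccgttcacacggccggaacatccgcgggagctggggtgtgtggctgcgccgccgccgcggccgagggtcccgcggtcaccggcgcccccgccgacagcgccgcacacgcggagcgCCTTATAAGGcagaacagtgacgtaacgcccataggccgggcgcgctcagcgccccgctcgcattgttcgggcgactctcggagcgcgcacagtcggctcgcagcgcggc
NPR3: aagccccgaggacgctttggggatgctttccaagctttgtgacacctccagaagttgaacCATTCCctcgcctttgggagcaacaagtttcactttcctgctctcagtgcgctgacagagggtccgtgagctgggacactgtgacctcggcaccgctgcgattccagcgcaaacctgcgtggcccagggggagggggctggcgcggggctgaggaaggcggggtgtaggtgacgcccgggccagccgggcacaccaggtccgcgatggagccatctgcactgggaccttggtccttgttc
LDHAL6B: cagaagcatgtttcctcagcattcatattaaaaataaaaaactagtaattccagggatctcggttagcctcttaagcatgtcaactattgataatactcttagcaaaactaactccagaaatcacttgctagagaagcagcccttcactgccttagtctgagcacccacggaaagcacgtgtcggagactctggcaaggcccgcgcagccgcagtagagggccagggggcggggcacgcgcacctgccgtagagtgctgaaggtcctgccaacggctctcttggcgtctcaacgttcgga
The FILIP1L window holds the run CCTTATAAGG, which matches the CArG box, the element bound by serum response factor, with its first base at -60 from the start. Of all 35116 windows of that length, 1.29% hold a CArG box. The TEAD element CATTCC, present in 14% of all windows, begins at -207 in FILIP1L and at -190 in NPR3. The LDHAL6B window holds none of the 6. None of the 5 windows of these genes holds the AP-1 element TGANTCA (7.71% of all windows), the NF-kB element GGGANTTNCC (1.4%), the cyclic AMP element TGACGTCA (1.85%) or the TATA element TATAAA (11.5%). No motif overlapped another. The windows shared little in composition, with a GC content of 75% in FILIP1L, 63.3% in NPR3 and 51.7% in LDHAL6B, against a median of 58.7%.

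All 4 transcripts were near the bottom of the tested range. In Vector libraries SPOCK1 was lower in CPM than all but 0.0155% of the tested genes, LDHAL6B than all but 0.0851%, NPR3 than all but 3.93% and FILIP1L than all but 6.65%. Per transcript length, in deposited TPM, the PLK2 libraries had LDHAL6B at 1.85 ± 0.11, FILIP1L at 1.75 ± 0.19, NPR3 at 0.713 ± 0.064 and SPOCK1 at 0.30 ± 0.02 TPM (SD, n = 3 each). LDHAL6B and FILIP1L overlapped there, while NPR3 and SPOCK1 lay apart from them and from each other. In Vector libraries the order was FILIP1L (0.677 ± 0.179 TPM), LDHAL6B (0.35 ± 0.24), NPR3 (0.247 ± 0.038) and SPOCK1 (0.0433 ± 0.0513). LDHAL6B, highest with PLK2, overlapped both of its neighbours there. The filter on low counts asked for about 0.621 CPM in 3 libraries. NPR3 and FILIP1L reached it in all 9. LDHAL6B reached it in 3 PLK2 and 2 PLK2(D223N) libraries, and SPOCK1 in the 3 PLK2 libraries only. These 2 genes thus entered the test through the group in which they were high. Genes low in all groups were not tested, so the lowest ranks of these 2 in Vector libraries follow largely from the filter.

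NPR3 had 41, 34 and 41 counts in the PLK2 libraries, 19, 24 and 13 in the PLK2(D223N) libraries and 13, 11 and 16 in the Vector libraries. Every PLK2 library lay above every other library, while the PLK2(D223N) and Vector libraries overlapped. The summed counts were 116 with PLK2 and 40 with Vector, a ratio of 2.81 after scaling by library totals, with an exact 95% counting interval of 1.95 to 4.14. These intervals cover counting error only. The fitted log2 fold change was 1.53 (SE 0.24), the 17th largest of all tested genes.

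FILIP1L had 44, 47 and 50 counts with PLK2, 34, 24 and 45 with PLK2(D223N) and 26, 11 and 22 with Vector. The PLK2 libraries all lay above the Vector libraries. The PLK2(D223N) libraries spread widely and reached into both of the other groups in counts. The summed counts of 141 and 59 gave a PLK2 to Vector ratio of 2.32 (counting interval 1.70 to 3.199), and the log2 fold change was 1.26 (SE 0.25), rank 24.

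SPOCK1 was the scarcest, with 12, 13 and 11 counts with PLK2, 4, 2 and 5 with PLK2(D223N) and 0, 1 and 4 with Vector. The PLK2 libraries stood clear of all others. A count of 0 in Vector replicate 1 allows up to 0.182 CPM, taken as 3 counts of the library total. The sums of 36 and 5 gave a PLK2 to Vector ratio of 6.99 with a wide counting interval of 2.73 to 22.8, and the log2 fold change was 2.76 (SE 0.57), rank 7. Vector replicate 3 held 4 of the 5 Vector counts, and without it the ratio was 22.9 (3.86 to 931), against 4.53 (1.77 to 14.8) without Vector replicate 1.

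LDHAL6B had 25, 24 and 22 counts with PLK2, 7, 10 and 11 with PLK2(D223N) and 4, 7 and 2 with Vector. Here too the PLK2 libraries stood clear of all others, and the PLK2(D223N) and Vector libraries met at 7 counts. The sums of 71 and 13 gave a PLK2 to Vector ratio of 5.30 (2.91 to 10.4), and the log2 fold change was 2.42 (SE 0.36), rank 9. Without Vector replicate 2, which held 7 of the 13 counts, the ratio was 7.99 (3.49 to 22.5). It was 4.11 (2.17 to 8.61) without Vector replicate 3.

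**Figure D1:**
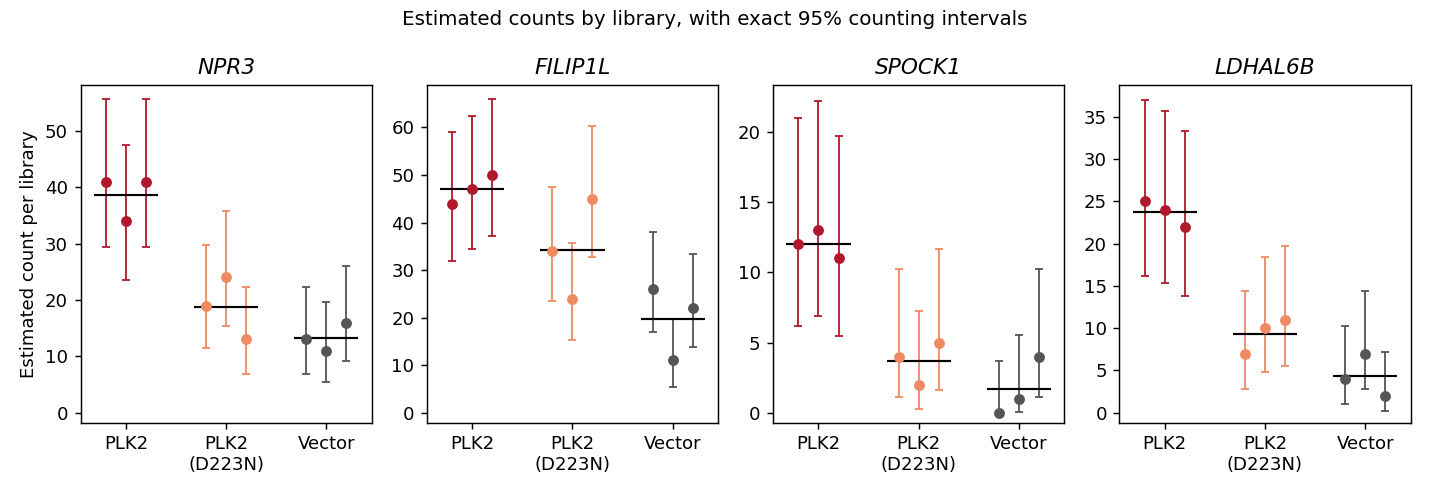
Estimated counts of the 4 genes (vertical axes, a scale each) in each library (points) of the PLK2, PLK2(D223N) and Vector groups, with exact 95% counting intervals (bars) and group means (lines). The PLK2 points lie above all Vector points for each gene, and the FILIP1L point at 45 of a PLK2(D223N) library lies above a PLK2 point at 44.

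The counts of the 4 genes varied little among the PLK2 libraries. For counts that vary only by sampling the variance over the mean is about 1. It was 0.422 for NPR3, 0.191 for FILIP1L, 0.0833 for SPOCK1 and 0.0986 for LDHAL6B in the PLK2 libraries. In PLK2(D223N) libraries it was 1.63, 3.21, 0.636 and 0.464 in the same order, and in Vector libraries 0.475, 3.07, 2.60 and 1.46. With 3 libraries each such value is imprecise. The genes were also chosen on their high counts in these PLK2 libraries, so the small spread there is not independent of that choice. In PLK2 vs Vector the fitted SE was 0.908, 0.832 and 0.818 times the SE from counting alone for NPR3, SPOCK1 and LDHAL6B, and 1.13 times for FILIP1L. Of the 1623 tested genes with at most 250 counts over the 6 libraries compared, 46.2% had a fitted SE below the counting SE. The counting intervals are thus wider than the fitted ones for those 3 genes.

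In PLK2 vs Vector 0.511% of the tested genes were called (adjusted p below 0.05), and the libraries did not overlap, with PLK2 higher, for 10% of them. All 4 genes were without overlap, which their choice all but fixes. Their median log2 fold change was 1.98, against -0.00 for all tested genes.

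The next question is how much of the difference was present with PLK2(D223N). All 4 genes lay above 0 in PLK2(D223N) vs Vector, as did 52.7% of all tested genes. This comparison uses the Vector libraries in which the 4 genes were chosen to be low, so a value above 0 is no independent support. NPR3 averaged 1.15 ± 0.34 CPM with PLK2(D223N) and 0.840 ± 0.125 CPM with Vector, and the log2 fold change was 0.45 (95% interval -0.14 to 1.04, SE 0.28, adjusted p = 0.604). FILIP1L averaged 2.12 ± 0.64 CPM and 1.22 ± 0.41 CPM, and the log2 fold change was 0.77 (0.20 to 1.34, SE 0.27, adjusted p = 0.574). LDHAL6B averaged 0.576 ± 0.126 CPM and 0.282 ± 0.185 CPM, and the log2 fold change was 1.05 (0.12 to 1.98, SE 0.44, adjusted p = 0.574). SPOCK1, with 11 counts with PLK2(D223N) and 5 with Vector, differed by 1.05 on the log2 scale (-0.55 to 2.65, SE 0.75, adjusted p = 0.633).

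By edgeR's quasi-likelihood test with Benjamini-Hochberg adjustment, 0 of the 4 genes were called in PLK2(D223N) vs Vector, where 0.0232% of all tested genes were called. In the same edgeR fit 2 genes had an unadjusted p below 0.05, FILIP1L (0.0115) and LDHAL6B (0.0295). So did 5.22% of tested genes with PLK2(D223N) higher. The Vector libraries helped choose the genes, so these p-values are no independent support. LDHAL6B also passed the filter only with the PLK2 libraries. DESeq2 called 0 of the 4, and 0.0696% of all genes. The ratios of summed counts were 1.36 (counting interval 0.890 to 2.09) for NPR3, 1.70 (1.22 to 2.38) for FILIP1L, 2.14 (0.684 to 7.85) for SPOCK1 and 2.09 (1.05 to 4.40) for LDHAL6B. The SPOCK1 ratio was 7.02 without Vector replicate 3 and 1.38 without Vector replicate 1. The LDHAL6B ratio was 3.15 (1.28 to 9.31) without Vector replicate 2 and 1.62 (0.784 to 3.61) without Vector replicate 3. For FILIP1L it was 1.44 (0.983 to 2.10) without PLK2(D223N) replicate 3 and 1.96 (1.32 to 3.00) without Vector replicate 1. An exact permutation test over 3 against 3 libraries (two-sided) gave p = 0.2 for each gene, and cannot go below 0.1.

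PLK2 was higher than PLK2(D223N) for each gene in its mean. The difference between both responses is the contrast of PLK2 with PLK2(D223N), which shares with the choice of the genes the PLK2 libraries in which they were high. NPR3 averaged 2.45 ± 0.23 CPM with PLK2 and 1.15 ± 0.34 CPM with PLK2(D223N), a log2 difference of 1.08 (SE 0.22, 95% interval 0.61 to 1.56, adjusted p = 0.0891). LDHAL6B averaged 1.50 ± 0.11 CPM with PLK2 and 0.576 ± 0.126 CPM with PLK2(D223N), a log2 difference of 1.37 (SE 0.30, 0.73 to 2.01, adjusted p = 0.127). For SPOCK1, at 0.761 ± 0.072 and 0.226 ± 0.094 CPM, it was 1.71 (SE 0.48, 0.69 to 2.74, adjusted p = 0.373). FILIP1L stood closest in both forms, at 2.98 ± 0.18 CPM with PLK2 and 2.12 ± 0.64 CPM with PLK2(D223N), a log2 difference of 0.49 (SE 0.23, 0.01 to 0.97, adjusted p = 0.820).

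Thus 0 of the 4 genes passed edgeR's test between PLK2 and PLK2(D223N) with all 9 libraries, where 0.162% of the tested genes were called, and DESeq2 called 0, where it called 0.286% of all genes. In the edgeR test all 4 had an unadjusted p below 0.05: 0.000214 for NPR3, 0.000372 for LDHAL6B, 0.00283 for SPOCK1 and 0.0465 for FILIP1L. So did 2.98% of all tested genes with PLK2 higher. The PLK2 libraries here are those whose high counts chose the genes, so neither these p-values nor the separation below is independent support. SPOCK1 and LDHAL6B also passed the filter only with those libraries. The fitted SE was 0.951, 0.967 and 0.931 times the SE from counting alone for NPR3, SPOCK1 and LDHAL6B. For FILIP1L it was above the SE from counting alone. In CPM the libraries did not overlap for any of the 4, as for 11% of tested genes, though for FILIP1L by a narrow gap of 2.79 CPM in the lowest PLK2 library against 2.77 CPM in the highest PLK2(D223N) library, and its counts and TPM overlapped. The ratios of summed counts were 2.07 (counting interval 1.49 to 2.90) for NPR3, 1.37 (1.05 to 1.78) for FILIP1L, 3.27 (1.63 to 7.12) for SPOCK1 and 2.53 (1.62 to 4.08) for LDHAL6B. Without PLK2(D223N) replicate 2 the FILIP1L ratio was 1.19 (0.898 to 1.59), and its log2 difference in the fit was 0.29. The exact permutation test gave p = 0.1 for each gene, the smallest it allows. PLK2 RNA was also higher with PLK2 than with PLK2(D223N), and its part in these differences was not tested.

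The call between PLK2 and PLK2(D223N) differed between fits, and the cause was not tested. In a fit to the 6 PLK2 and PLK2(D223N) libraries alone, NPR3 (adjusted p = 0.00267), LDHAL6B (0.00355) and SPOCK1 (0.0195) were called with PLK2 higher, and FILIP1L (0.174) was not. That fit called 3.92% of its tested genes. In the main test SPOCK1 reached the filter level in PLK2 libraries alone, and LDHAL6B in 3 PLK2 and 2 PLK2(D223N) libraries. The PLK2 libraries in the smaller fit are those whose high counts chose the genes, so these calls are no independent support. The same 3 genes were called without Vector replicate 1, with adjusted p between 0.00564 and 0.0348, where 2.43% of tested genes were called. NPR3 and LDHAL6B were called without Vector replicate 2 (0.0373 and 0.0344, 0.414% called). With all 9 libraries and no filter beyond 1 count NPR3 was called too (adjusted p = 0.0479). The fold changes hardly moved between these fits. Without Vector replicate 3, or without any 1 of the PLK2 or PLK2(D223N) libraries, none of the 4 was called, with a lowest adjusted p of 0.124.

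**Figure D2:**
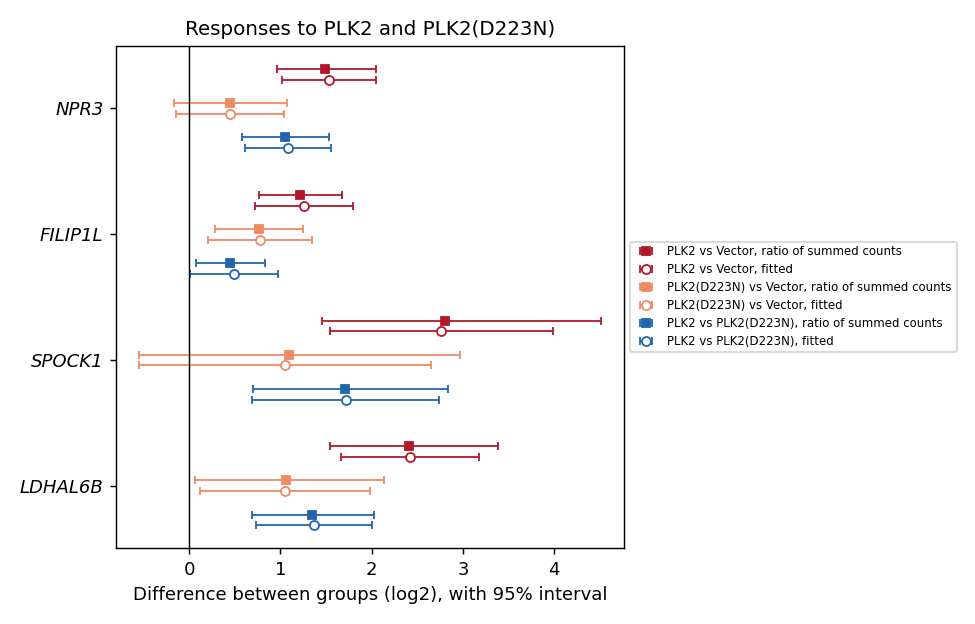
Differences between groups on the log2 scale (horizontal axis) for the 4 genes in 3 comparisons, as the ratio of summed counts (filled squares, 95% counting interval) and as the fitted log2 fold change (open circles, 95% interval). PLK2(D223N) vs Vector lies between 0.45 and 1.05 in the fit, below PLK2 vs Vector for each gene.

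**Figure D3:**
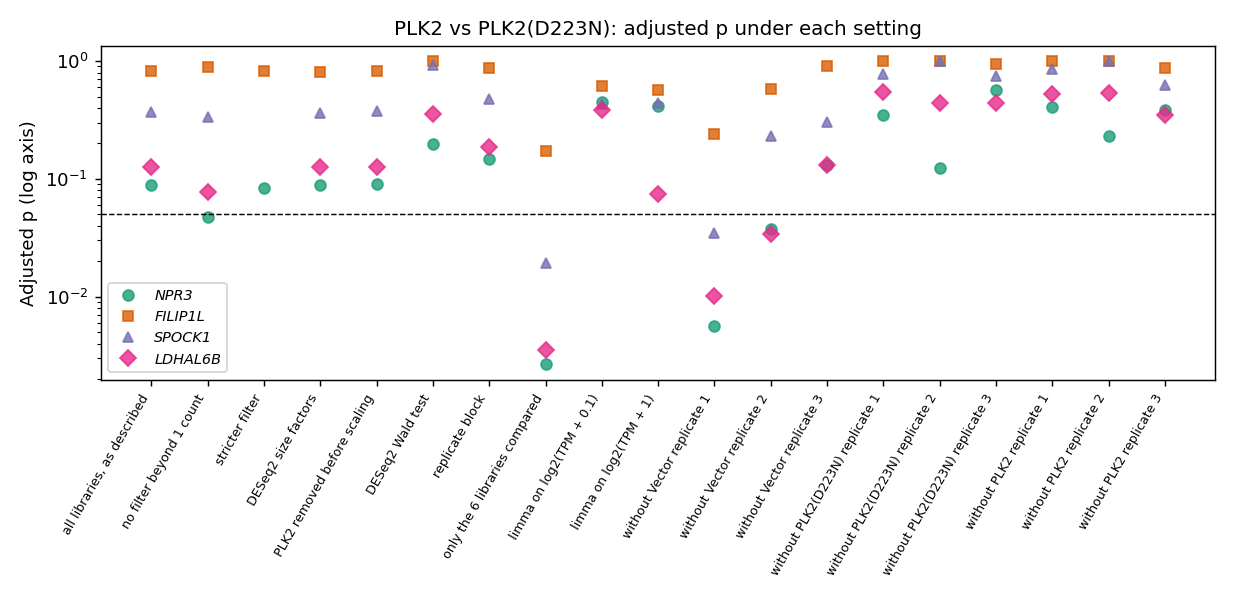
Adjusted p of the 4 genes in PLK2 vs PLK2(D223N) (vertical log axis) under each setting (horizontal axis), with the 0.05 threshold dashed. NPR3, LDHAL6B and SPOCK1 fall below it in the fit to 6 libraries and without Vector replicate 1, and FILIP1L stays above it throughout.

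The share of the response that was present with PLK2(D223N) differed between the genes as a point estimate. The log2 fold change with PLK2(D223N) was 61.2% of that with PLK2 for FILIP1L, 43.5% for LDHAL6B, 38.0% for SPOCK1 and 29.4% for NPR3. Both responses use the same Vector libraries, and whether these shares differ was not tested. Leaving out 1 library changed their order. The share ranged from 15.0% (without PLK2(D223N) replicate 2) to 42.8% (without replicate 3 of that group) for NPR3 and from 21.0% (without Vector replicate 1) to 59.8% (without Vector replicate 3) for SPOCK1. For FILIP1L it ranged from 42.2% (without PLK2(D223N) replicate 3) to 77.2% (without replicate 2 of that group), and for LDHAL6B from 33.7% to 54.3% (without Vector replicates 3 and 2). Within the PLK2(D223N) group the order of the libraries in counts differed between the genes. Replicate 2 had the most NPR3 (24 counts) and the fewest FILIP1L (24) and SPOCK1 (2) counts, and replicate 3 the most FILIP1L (45), SPOCK1 (5) and LDHAL6B (11) but the fewest NPR3 counts (13). For each gene the counting intervals of these libraries overlapped, for SPOCK1 at 0.242 to 7.22 in replicate 2 and 1.62 to 11.7 in replicate 3. Replicate 2 also had the least PLK2 RNA of that group, at 10680 CPM, against 13978 and 12416 CPM in replicates 1 and 3. Replicate 1, with the most PLK2 RNA, had the fewest LDHAL6B counts (7). The part of the PLK2 RNA level in these orders was not tested.

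Relatives of the 4 genes were examined from lists of each family and pathway. Of all tested genes, 16.4% had an unadjusted p below 0.05 in PLK2 vs Vector, 8.53% in PLK2(D223N) vs Vector and 6.04% in PLK2 vs PLK2(D223N), and the counts of list genes at that level are to be read against these shares. In the natriuretic peptide system, 13 genes besides NPR3 were tested, and 0 were called in any of the 3 comparisons by edgeR, with 2, 0 and 1 at an unadjusted p below 0.05 in PLK2 vs Vector, PLK2(D223N) vs Vector and PLK2 vs PLK2(D223N). Their log2 fold changes in PLK2 vs Vector ran from -0.17 to 0.26, with a median of 0.09. Among receptors, the guanylyl cyclases NPR1 (3, 2 and 1 counts summed over the PLK2, PLK2(D223N) and Vector libraries) and NPR2 (19, 8 and 7) were too low to test, as were the ligand genes NPPA (8, 9 and 3) and NPPB (1, 3 and 0). NPPC, which encodes C-type natriuretic peptide, had 78, 53 and 71 counts (log2 fold change 0.14, SE 0.21, for PLK2 against Vector). GNAI3, an inhibitory G protein subunit, was at 0.12 (SE 0.05, adjusted p = 0.271), and the peptide-degrading protease IDE at 0.09 (SE 0.06, adjusted p = 0.476).

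In the list of filamins and their partners, 0 of 12 genes besides FILIP1L were called in any comparison, with 4, 0 and 0 at an unadjusted p below 0.05. The paralogue FILIP1 had 106, 89 and 73 counts over the PLK2, PLK2(D223N) and Vector libraries, and was at 0.54 on the log2 scale in PLK2 vs Vector (SE 0.23, adjusted p = 0.271). In PLK2(D223N) vs Vector it was at 0.25 (SE 0.24, adjusted p = 0.700). The abundant filamin FLNA was at -0.08 (SE 0.06), and the non-muscle myosins MYH9 and MYH10 at -0.08 (SE 0.06) and 0.01 (SE 0.06), in PLK2 vs Vector. FILIP1L was chosen for its high value in PLK2 vs Vector, so its place above these genes is no independent result.

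For SPOCK1, 0 of 5 tested relatives of the SPARC family were called in any comparison, with 0 at an unadjusted p below 0.05 in each. The other testicans were SPOCK2, with 197, 207 and 199 counts over the PLK2, PLK2(D223N) and Vector libraries, and SPOCK3, with 30, 20 and 24. SPARC itself had 5, 4 and 4 counts. Among 11 tested proteases and inhibitors of the matrix, 0 were called, with 2, 4 and 1 at an unadjusted p below 0.05. MMP2, a gelatinase, had 96, 117 and 141 counts and was at -0.55 on the log2 scale in PLK2 vs Vector (SE 0.16, adjusted p = 0.142), the lowest of that list. CTSL, which encodes cathepsin L, was at -0.02 (SE 0.05, adjusted p = 0.900).

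For LDHAL6B, 0 of 9 tested lactate dehydrogenase and lactate transport genes were called in any comparison, with 1, 2 and 0 at an unadjusted p below 0.05. LDHA and LDHB, the subunits of the common enzyme, were at 1502, 1490 and 1620 CPM and at 1328, 1263 and 1314 CPM in PLK2, PLK2(D223N) and Vector libraries. LDHAL6A, its nearest paralogue by name, had 14, 7 and 9 counts. The lactate exporter SLC16A3 had 39, 34 and 19 counts and was at 1.03 on the log2 scale in PLK2 vs Vector (SE 0.35, adjusted p = 0.194). SLC16A7, the lowest of that list, went the other way, with 23, 37 and 39 counts (-0.75, SE 0.36, adjusted p = 0.319). Of 10 testis genes, 6 were listed and 2 tested. ACRV1, an acrosomal protein gene, had 48, 23 and 18 counts (log2 fold change 1.403, SE 0.36, adjusted p = 0.0971), and LDHC, the testis lactate dehydrogenase, 364, 347 and 320 (0.19, SE 0.11, adjusted p = 0.372), and 0 of the 2 were called in any comparison, with 1, 0 and 1 at an unadjusted p below 0.05.

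Of 8 tested genes that overlap or flank the 4, 0 were called in any comparison, with 3, 1 and 2 at an unadjusted p below 0.05. CMSS1 was at 0.08 (SE 0.06) and MYO1E at -0.01 (SE 0.07) in PLK2 vs Vector. TBC1D23, the gene next to FILIP1L, was at 0.25 (SE 0.07, adjusted p = 0.0971), and TARS1, next to NPR3, at 0.17 (SE 0.06, adjusted p = 0.173). DESeq2 called 0 of the genes in these lists in each comparison.

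**Figure D4:**
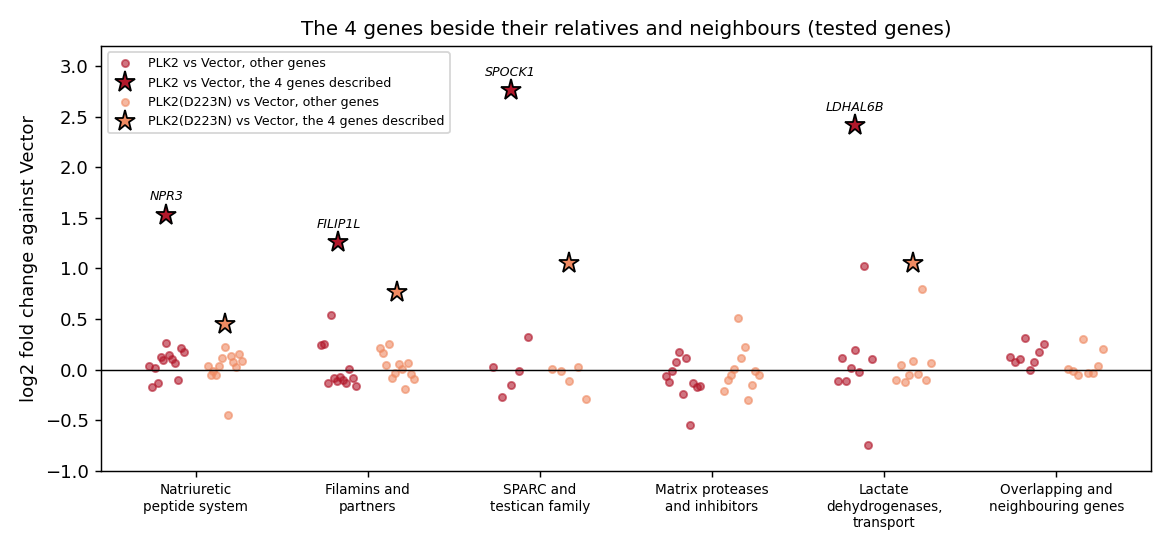
Log2 fold changes against Vector (vertical axis) of tested genes (points) in 6 lists (horizontal axis), for PLK2 (red) and PLK2(D223N) (orange), with NPR3, FILIP1L, SPOCK1 and LDHAL6B as stars. The other genes of the natriuretic list lie between -0.17 and 0.26 with PLK2, and NPR3 at 1.53.

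The genes whose levels were most like each of the 4 over the 9 libraries (Pearson's r of log2 CPM, computed on genes that averaged 1 CPM or more) were mostly more abundant and differed less between groups. Both features follow largely from the choices made. SPOCK1 and LDHAL6B averaged below 1 CPM themselves, and the 4 genes were chosen for being higher with PLK2. For NPR3 they were CHMP2B, a subunit of the ESCRT-III membrane remodelling complex (r = 0.97), the ubiquitin ligase gene NEDD4L (0.97) and DCAF8 (0.96). CHMP2B was at 103, 94.5 and 91.4 CPM in PLK2, PLK2(D223N) and Vector libraries, a far smaller contrast than that of NPR3. For FILIP1L they were the clock gene ARNTL (0.92), the histone gene H2BC5 (0.91) and PDCD5 (0.91). H2BC5 was at 8.18, 5.83 and 4.605 CPM in the same groups.

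For SPOCK1 the nearest were NME9, at 2.73, 2.33 and 1.98 CPM (r = 0.99), TMEM212, at 17.4, 14.5 and 11.96 CPM (0.97), and NKIRAS1 (0.97). For LDHAL6B they were N4BP2L1, at 5.39, 4.06 and 3.58 CPM (0.96), RGPD2 (0.95) and PYROXD2, at 2.41, 1.98 and 1.42 CPM (0.94). RGPD2 had the largest contrast of these, at 2.43, 1.38 and 0.564 CPM, and has near-identical copies, so its counts are uncertain. The points share libraries and depth, and 12294 or 12295 genes were searched for each, so these values are a description only.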

How the data were processed

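Polyadenylated RNA of 9 HEK293T cultures was sequenced, 3 per group. Groups came from the labels. The label title of Vector replicate 1 has transposed letters, and its column was matched by number. The submitters' processing notes name the build GRCh38.p13 and, without roles, DESeq2 1.4.5, RSEM 1.3.1 and Bowtie2. Annotation and strandedness: not given in the sources used here. Values used from the deposited table are estimated counts per gene and, per the file headers, TPM. The table holds 18 further per-library columns that were not used.

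Estimated counts were rounded. Genes were kept by filterByExpr (minimum count 10), libraries scaled by TMM, and all 9 fitted by group in edgeR 4.0.16 (robust quasi-likelihood, two-sided), with Benjamini-Hochberg adjustment over 12924 genes and calls below 0.05. Levels are CPM on the TMM scale, save marker sums and the limit for a count of 0, which use library totals. DESeq2 1.42.0, limma 3.58.1, R 4.3.3 and Python 3.11.15 were also used. Ratios of summed counts carry exact conditional 95% intervals. The fit was tested on simulated data.

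The genes and lists were chosen with earlier results of these data known. Named genes are the 4 genes, PLK2, the 3 genes most like each, and list genes of high level. The relatives NPR1, NPR2, NPPA, NPPB, NPPC, FILIP1, SPOCK3, SPARC, LDHAL6A, SLC16A3, SLC16A7 and MMP2 were named after their values were seen. So were the host and flanking genes. Replicates are called biological in the design text. Alternatives were size factors, another test, filters, TPM, a replicate block, smaller fits and each library left out.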

Additional observations from a re-analysis of the deposited data

How the results depend on the processing

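No result reversed. Of 334 values recomputed, 293 kept their direction and their side of the threshold or, where untested, moved by less than the replicate SD or the counting interval (a factor of 1.5 for counts of calls). For PLK2(D223N) vs Vector a gene kept its side by staying uncalled. Fits without a library of the group outside a comparison are counted too, and hardly moved its fold changes. Sizes could still move much. With limma on log2(TPM + 1), where low levels are compressed, PLK2 vs Vector was 0.46 for NPR3, 0.72 for FILIP1L, 0.32 for SPOCK1 and 1.09 for LDHAL6B, and with log2(TPM + 0.1) 1.23 for NPR3 and 1.54 for SPOCK1. Without 1 library in turn, PLK2 vs Vector ranged from 1.47 to 1.66 for NPR3, 1.03 to 1.46 for FILIP1L, 2.17 to 4.27 for SPOCK1 (highest without Vector replicate 3) and 2.06 to 3.00 for LDHAL6B, and the SPOCK1 ratio of summed counts from 4.53 to 22.9. PLK2 vs PLK2(D223N) passed for NPR3 with no filter (log2 difference 1.09, adjusted p = 0.0479) and, in the fit to 6 libraries, for NPR3 (1.08), SPOCK1 (1.71) and LDHAL6B (1.37). Without 1 library it ranged from 0.88 to 1.303 for NPR3, 0.29 to 0.73 for FILIP1L, 1.43 to 1.99 for SPOCK1 and 1.204 to 1.497 for LDHAL6B. PLK2(D223N) vs Vector then ranged from 0.23 to 0.66 for NPR3, 0.53 to 0.98 for FILIP1L, 0.46 to 2.55 for SPOCK1 and 0.70 to 1.63 for LDHAL6B. With log2(TPM + 1) it was 0.06 for SPOCK1, and PLK2 vs PLK2(D223N) 0.32 for NPR3. SPOCK1 and LDHAL6B did not pass the stricter filter, nor the filter of the 6-library fit in PLK2(D223N) vs Vector.

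Calls in PLK2 vs Vector, PLK2(D223N) vs Vector and PLK2 vs PLK2(D223N) numbered 66, 3 and 21. They were 136, 5 and 35 with no filter and 143, 9 and 37 by DESeq2. In fits to 6 libraries they were 23 and 502 in the first and last. By limma PLK2 vs Vector had 23 (pseudocount 0.1) and 24 (pseudocount 1). Without 1 library they ranged from 13 to 1656, 2 to 347 and 9 to 317. The highest were without Vector replicate 2 in both comparisons with Vector, and without Vector replicate 1 in PLK2 vs PLK2(D223N). The cause was not tested. A replicate block gave NPR3 1.08 (adjusted p = 0.148) in PLK2 vs PLK2(D223N) and changed no call in the comparisons tested for these genes. Same-numbered libraries did not deviate together (r from -0.11 to 0.15), so the numbers were not taken to pair the libraries.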
